A study of Mus musculus with 4 samples.

Results

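The genes examined were Spp1, which encodes osteopontin, and 8 genes of pancreatic duct and epithelial cells: Clu, Krt7, Krt8, Krt18, Krt19, Sox9, Epcam and Muc1. They were taken by gene name, and all 9 were found among the 31017 names of the count tables. Their transcripts were counted in 4 bulk RNA-seq libraries of sorted mouse cells that the labels call beta cells, the insulin-making cells of the pancreatic islet. The islets came from 10-week-old wild type C57BL/6J males, were cultured overnight and dissociated, and the cells were sorted by flow cytometry on the tetraspanin CD63 into CD63 high cells (2 libraries) and CD63 low cells (2 libraries). All groups share the genotype, strain, sex, age and culture, and no treatment is named. The labels name no gate other than CD63, and nothing in them tells whether the replicates are separate animals or separate sorts, so the p-values reflect the spread between these 4 libraries, which may be technical.

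Osteopontin is a secreted, heavily phosphorylated glycoprotein that binds integrins and CD44, and in the healthy pancreas it is known as a marker of duct cells. Clusterin, the product of Clu, is a secreted chaperone that keeps unfolding proteins soluble outside the cell. Keratins are the intermediate filament proteins of epithelia and polymerise as pairs of a type II chain, such as those of Krt7 and Krt8, with a type I chain, such as those of Krt18 and Krt19. In the mouse pancreas Krt8 and Krt18 form the filaments of simple epithelial cells, endocrine cells included, whereas Krt19 and the transcription factor gene Sox9 mark the duct. Epcam encodes an adhesion molecule of epithelial cells, and Muc1 a membrane mucin of their apical surface.

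The stretches of 250 bases before the RefSeq start sites of Spp1, which had the largest fold change of the 8 tested among the 9 genes, and of the 3 abundant keratin genes, which did not pass the test, show how unlike these upstream regions are. RefSeq sequences on GRCm38.p6 matched 6 of the 9 genes. Capitals mark matches on either strand to any of 7 short motifs searched: the TATA box TATAAA, the CCAAT box CCAAT, the GC box GGGCGG, the AP-1 motif TGANTCA, the RUNX motif TGTGGT, the STAT motif TTCNNNGAA and the RBPJ motif TGGGAA. The Spp1 region is chr5:104434861-104435110 on the plus strand, the Krt7 region chr15:101412153-101412402 (plus), the Krt8 region chr15:102004343-102004592 (minus) and the Krt18 region chr15:102027966-102028215 (plus), each written 5′ to 3′ on the strand of the gene. RefSeq lists another Spp1 start inside the gene, whose upstream region, chr5:104435942-104436191, held none of the 7 motifs and is not printed. By the gene bounds used for counting, the Krt7 region also lies inside its gene. The Krt18 region overlaps the first bases of its gene. On its minus strand the counted Krt8 gene begins at 102004482, within the Krt8 region, and the RBPJ match marked there lies inside the gene. Upstream thus refers to the RefSeq start sites alone.
Spp1 upstream region: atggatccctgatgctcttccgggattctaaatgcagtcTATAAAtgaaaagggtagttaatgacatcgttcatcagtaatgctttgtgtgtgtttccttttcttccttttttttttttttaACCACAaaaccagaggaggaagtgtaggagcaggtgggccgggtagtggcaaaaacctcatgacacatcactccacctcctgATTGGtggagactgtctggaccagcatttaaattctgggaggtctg
Krt7 upstream region: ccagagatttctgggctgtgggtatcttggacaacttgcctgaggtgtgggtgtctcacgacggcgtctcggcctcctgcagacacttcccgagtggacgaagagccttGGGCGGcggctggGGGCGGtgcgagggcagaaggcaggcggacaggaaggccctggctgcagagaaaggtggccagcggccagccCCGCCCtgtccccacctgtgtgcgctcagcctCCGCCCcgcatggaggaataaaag
Krt8 upstream region: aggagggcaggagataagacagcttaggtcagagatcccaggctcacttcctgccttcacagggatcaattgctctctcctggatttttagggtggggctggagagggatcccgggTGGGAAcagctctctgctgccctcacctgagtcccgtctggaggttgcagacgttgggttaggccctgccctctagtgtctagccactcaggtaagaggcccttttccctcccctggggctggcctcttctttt
Krt18 upstream region: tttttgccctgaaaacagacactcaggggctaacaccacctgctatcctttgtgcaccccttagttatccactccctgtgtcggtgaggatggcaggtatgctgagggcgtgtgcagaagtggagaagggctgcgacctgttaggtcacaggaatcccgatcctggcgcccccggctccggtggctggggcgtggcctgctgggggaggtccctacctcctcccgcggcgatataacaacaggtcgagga
No capital letters of 2 different motifs overlap. The Spp1 region held a match to the letters TATAAA starting 211 bases before the start site. On the other strand it held a RUNX match at 128 bases and a CCAAT match at 46 bases. Of all 32841 upstream regions of this length, 12.4% held TATAAA at any position, 14% the RUNX motif and 33.9% the CCAAT motif. Krt7 held 4 GC boxes, a motif found in 32.7% of regions, and its G and C content of 66% stood against 43.6% for Spp1. Krt8 held 1 match to the RBPJ motif (21.6% of regions) and Krt18 none of the 7. The AP-1 and STAT motifs, in 6.75% and 7.02% of regions, were not in these 4 windows. A match describes the letters and shows no binding.

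Total counts per library ran from 29249270 to 35003307, so that 1 CPM (counts-per-million) stood for 29.2 to 35.0 counts. CPM values below are scaled by TMM, which corrects for differences in library composition, unless called CPM of total counts. Cd63, the gene of the sorting marker, read 1974 and 2077 CPM in the high and 1186 and 1120 CPM in the low libraries, in the direction of the sort. Beta cell markers summed to 537800 to 622200 CPM of total counts. Markers of other cell types were present as well. In CD63 high against CD63 low libraries, macrophage markers summed to 186.5 and 613.9 against 26.6 and 48.9 CPM of total counts, acinar markers to 1112 and 1558 against 77.2 and 478.4, and delta cell markers to 465.7 and 841.9 against 67.6 and 48.8. The sums of 2 other islet cell types were larger, with 6030 and 6348 against 976 and 1071 for alpha cell markers and 2418 and 3906 against 517 and 314.7 for gamma cell markers. Endothelial, mesenchymal and Schwann cell markers summed to 0.629 to 47.5 in all libraries.

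Of the 9 genes, Spp1 and Clu rose in CD63 high cells and none fell. Spp1 was 11.8-fold and Clu 3.59-fold higher. Over all 13241 tested genes, adjusted by Benjamini-Hochberg in edgeR's quasi-likelihood test, 2.50% of genes rose and 0.287% fell. Krt8, Krt18, Krt19 and Muc1 had higher mean values in CD63 high cells without passing the test, and Epcam and Krt7 lay close to equal in the groups. Sox9, with 19 counts in all, was too low to be tested. In each of the 9 genes the CPM values of the groups did not overlap, with CD63 low higher for Krt7 and CD63 high for the other 8. Over all tested genes 23.8% were separated in the higher and 22.2% in the lower direction. In sorted bulk libraries a change in the share of cells of a type and a change in RNA per cell cannot be told apart. A two-sided exact permutation test of 2 against 2 libraries cannot go below 0.333 for any single gene, so the tests rest on the fit across genes.

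**Figure D1:**
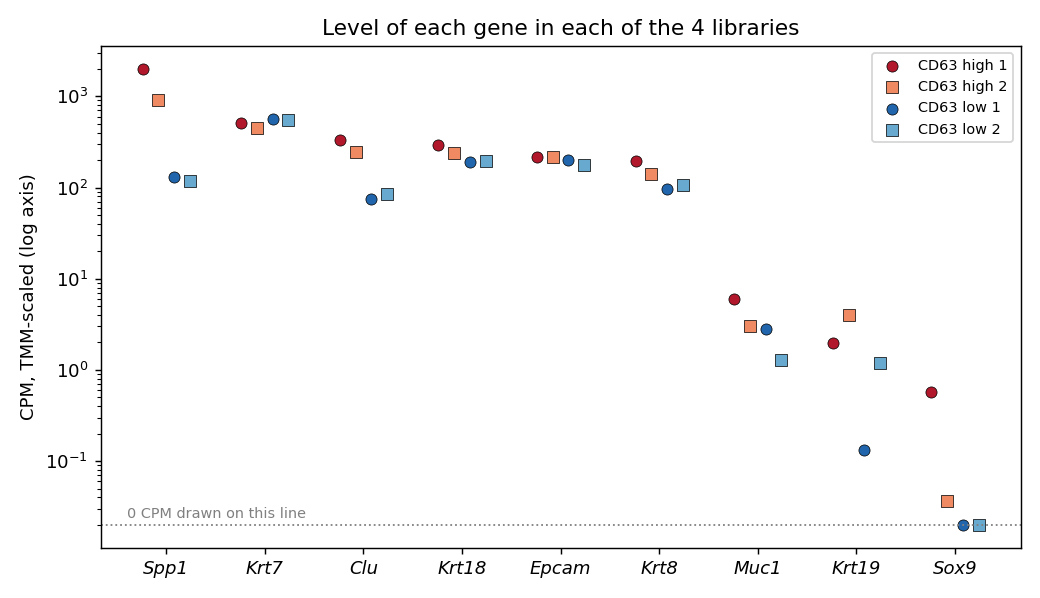
The level of each of the 9 genes in each library, in TMM-scaled CPM on a log axis, with circles for replicate 1 and squares for replicate 2 and values of 0 drawn on the dotted line. Spp1 stands at 2007 and 913 CPM in the CD63 high samples and at 129 and 118 CPM in the CD63 low samples, while Krt7 and Epcam hardly differ between the groups.

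**Figure D2:**
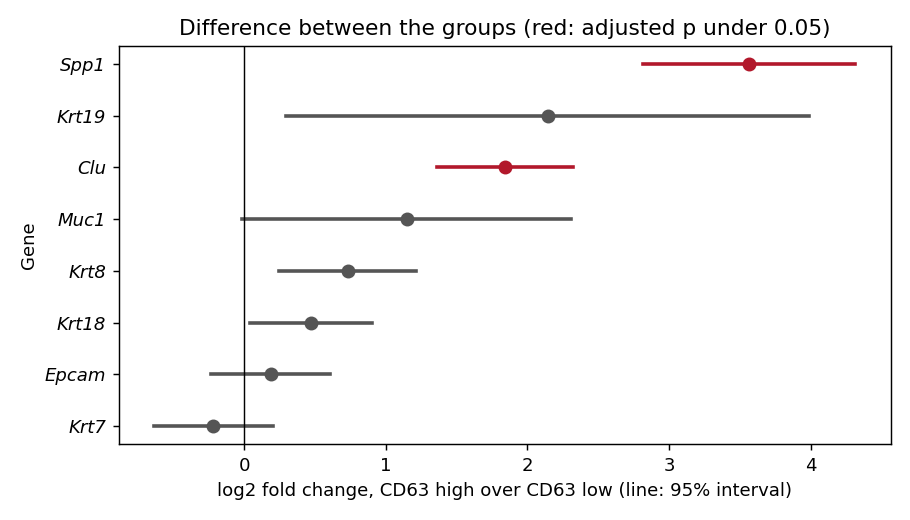
The log2 fold change of CD63 high over CD63 low for the 8 tested genes, with the 95% interval of edgeR's fit as a line. Spp1 at 3.57 and Clu at 1.84 are drawn in red because their adjusted p was under 0.05, and the intervals of Krt7, Epcam and Muc1 include 0.

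Spp1 (chromosome 5, 104435118 to 104441050, mm10, plus strand) was at 2007 and 913 CPM in CD63 high replicates 1 and 2 and at 129 and 118 CPM in CD63 low replicates 1 and 2. Every CD63 high library thus lay far above both CD63 low libraries, but the CD63 high libraries also lay 2.20-fold apart, whereas the CD63 low libraries differed by 1.09-fold. The log2 fold change was 3.57 (SE 0.34, 95% interval 2.81 to 4.32), with an edgeR adjusted p of 0.000911. It stayed called in all 11 alternative analyses. The size rests partly on 1 library, since without CD63 high replicate 1 the log2 fold change was 2.89. Spp1 took between 0.0119% and 0.207% of all counts of a library.

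Clu (chromosome 14, 65968483 to 65981547, mm10, plus strand) was at 328 and 243 CPM in CD63 high and at 74.7 and 84.4 CPM in CD63 low libraries. Its CD63 high replicates lay closer together than those of Spp1, and again CD63 high replicate 1 was the highest. The log2 fold change was 1.84 (SE 0.22, 95% interval 1.36 to 2.33), with an edgeR adjusted p of 0.00283, and Clu too was called in all 11 alternatives. Compared per length within a library, Spp1 exceeded Clu 12.7-fold and 7.84-fold in the CD63 high samples and 3.60-fold and 2.91-fold in the CD63 low samples. The ratio of Spp1 to Clu was therefore higher in both CD63 high libraries, a ratio that no scaling of libraries can change.

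Among the keratins, Krt7, Krt8 and Krt18 made up nearly all transcripts. The tables hold 53 keratin genes, of which 21 had a count in any library, and these 3 took 95.3% to 96.1% of keratin counts in each library. Krt8 (chromosome 15, 101996698 to 102004482, mm10, minus strand), the type II partner of Krt18, was at 197 and 140 CPM in the CD63 high samples and at 96.6 and 106 CPM in the CD63 low samples. Its log2 fold change of 0.73 (SE 0.22, 95% interval 0.25 to 1.21) had an edgeR adjusted p of 0.118 and did not pass. DESeq2 called it with an adjusted p of 0.0243, as did edgeR without a filter on low counts (0.0238). It passed in only these 2 of the 11 alternatives. Without CD63 high replicate 1 its log2 fold change was 0.46. Krt18 (chromosome 15, 102028180 to 102032027, mm10, plus strand) was at 294 and 241 CPM in the CD63 high samples and at 192 and 193 CPM in the CD63 low samples. The CD63 low libraries were nearly equal and both lay below the CD63 high libraries. Its log2 fold change was 0.47 (SE 0.20, 95% interval 0.04 to 0.91, edgeR adjusted p 0.283).

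Krt8 and Krt18 are neighbours on the chromosome, with 23.7 kb and no other gene name of the tables between them. Per length, the ratio of Krt8 to Krt18 was 0.492 and 0.425 in the CD63 high samples and 0.369 and 0.404 in the CD63 low samples. The ratio was slightly higher in CD63 high cells, and it spanned less than the level of either gene. Krt8 counts may be too low in all libraries, because a transcript named Krt8-ps shares 98.6% of 941 bases with it and reads that fit both places are not counted. Krt8 and Krt7 also share 101 and 77 exonic bases with a gene on the other strand, which these strandless libraries cannot separate.

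Krt7 (chromosome 15, 101411043 to 101430313, mm10, plus strand), a type II keratin, was lower in both CD63 high libraries without passing the test. It was at 510 and 445 CPM in the CD63 high samples and at 558 and 551 CPM in the CD63 low samples. The groups differed by little more than the CD63 high libraries did from each other, and the log2 fold change of -0.22 (SE 0.19, 95% interval -0.64 to 0.20, edgeR adjusted p 0.678) did not pass. Within libraries the balance of the type II keratins differed. Per length, Krt7 over Krt8 was 0.718 and 0.884 in the CD63 high samples and 1.6 and 1.44 in the CD63 low samples. The ratio was thus lower in both CD63 high libraries. Krt8 may be undercounted, and the counted length of Krt7, 7049 bases, may exceed that of its transcripts. Which of the genes has more transcripts therefore cannot be read from the ratio. Type II over type I chains, taken as Krt7 and Krt8 over Krt18 and Krt19, stood at 0.841 and 0.790 in the CD63 high samples and 0.960 and 0.981 in the CD63 low samples. The length given to Krt7 weighs in these values too.

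Krt19, the type I keratin of duct cells, was scarce. Krt19 (chromosome 11, 100140810 to 100148665, mm10, minus strand) had 62 and 110 counts in CD63 high and 4 and 46 counts in CD63 low libraries, or 1.98 and 3.97 against 0.132 and 1.18 CPM. The groups were separated only narrowly, and CD63 low replicate 1 held 0.112 times the CPM of replicate 2. The log2 fold change of 2.14 (SE 0.84, 95% interval 0.29 to 3.99) had an edgeR adjusted p of 0.253. It was 1.32 if CD63 low replicate 1 was left out, 4.47 if CD63 low replicate 2 was (adjusted p 0.00521), 1.56 with CD63 high replicate 2 left out and 2.55 with the other high library left out (0.0202), so single libraries decide its size and its call. Per length, Krt18 exceeded Krt19 78.4-fold to 1880-fold across the 4 libraries.

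Sox9 (chromosome 11, 112782224 to 112787760, mm10, plus strand), the transcription factor gene that marks duct cells and pancreatic progenitors, had 18 and 1 counts in CD63 high libraries and none in CD63 low libraries. Over the group this makes it at least 7.44-fold higher in CD63 high cells, against 3 counts over the CD63 low libraries. That bound rests on CD63 high replicate 1, since the other CD63 high library had 1 count. Low-input amplification makes copies of few molecules and no molecular identifiers are named, so this bound covers counting error only.

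Further duct markers were mostly low or overlapped between the groups. Cftr, the chloride channel of duct cells, and Onecut1, a duct transcription factor gene, had no count in any library. Tff2, a trefoil peptide gene, had 94 and 91 counts against 0 and 13, and its log2 fold change of 4.12 (SE 0.97) did not pass (edgeR adjusted p 0.0522). It passed in 8 of the 11 alternatives, among them DESeq2 (adjusted p 0.000462) and each fit that left out 1 library (0.00011 to 0.0138). Its log2 fold change was 3.22 without CD63 low replicate 1 and 9.56 without CD63 low replicate 2, the latter fitted against a library with no count and so no measure of size. For Tspan8, Ambp and Bicc1 the groups overlapped. These 6 duct markers outside the 9 genes summed to 30.6 and 39.7 CPM of total counts in CD63 high and 35.9 and 21.5 CPM of total counts in CD63 low libraries. The groups overlapped in this sum, to which Tspan8, with 340 to 717 counts, gave the most in every library, so that it says little of Tff2.

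Epcam (chromosome 17, 87635979 to 87651106, mm10, plus strand) had the smallest fold change of the 8 tested genes. It was at 214 and 214 CPM in the CD63 high samples and at 200 and 175 CPM in the CD63 low samples. The CD63 high libraries were nearly identical, and the nearest CD63 low library lay closer to them than to the other CD63 low library. Its log2 fold change was 0.19 (SE 0.19, 95% interval -0.23 to 0.61, edgeR adjusted p 0.726), which leaves room for a change of up to that upper bound. Muc1 (chromosome 3, 89229057 to 89233381, mm10, plus strand) was low, with 189 and 84 counts in CD63 high and 86 and 50 counts in CD63 low libraries, or 6.03 and 3.03 against 2.83 and 1.28 CPM. The replicates of each group were about as far apart as the groups. Its log2 fold change of 1.15 (SE 0.52, 95% interval -0.01 to 2.31) had an edgeR adjusted p of 0.342. Dropping a single library moved the Muc1 value both ways. It was lowest, at 0.57, when CD63 high replicate 1 was dropped. The highest, 1.81, came from dropping CD63 low replicate 1.

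Levels of different genes were compared per kilobase of exon, where the 9 genes fell into an abundant and a scarce set. The length is that of all exons counted for a gene, 7049 bases for Krt7, 1958 for Krt8 and 1648 for Spp1. A gene whose transcripts are shorter than its counted length reads too low, so the place of Krt7 is uncertain. In CD63 low cells the order was Krt18 (134 ± 0.419 CPM per kilobase, mean ± SD, n = 2), Epcam (91.9 ± 8.66), Krt7 (78.6 ± 0.723), Spp1 (74.8 ± 4.77), Krt8 (51.8 ± 3.52) and Clu (23.2 ± 2.00), with Muc1 (0.878 ± 0.467) and Krt19 (0.354 ± 0.400) far below and Sox9 without counts. Krt7 and Spp1, and Muc1 and Krt19, were neighbours within or near their spread. In CD63 high cells Spp1 led with 886 ± 469 CPM per kilobase, ahead of Krt18 (186 ± 26.0). Epcam (105 ± 0.0423) lay above Krt8 (86.0 ± 20.8) and Clu (83.1 ± 17.6) in both libraries, Krt8, Clu and Krt7 (67.7 ± 6.54) lay within their spread of each other, and Muc1 (1.93 ± 0.904) and Krt19 (1.6 ± 0.760) overlapped. Spp1 exceeded 99.9% of tested genes per length in CD63 high and 97.5% in CD63 low cells, and Clu 97.4% and 90.6%. In the CD63 low libraries Spp1 stood near Krt7 per length, but at a mean of 123 against 554 CPM without division by length.

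**Figure D3:**
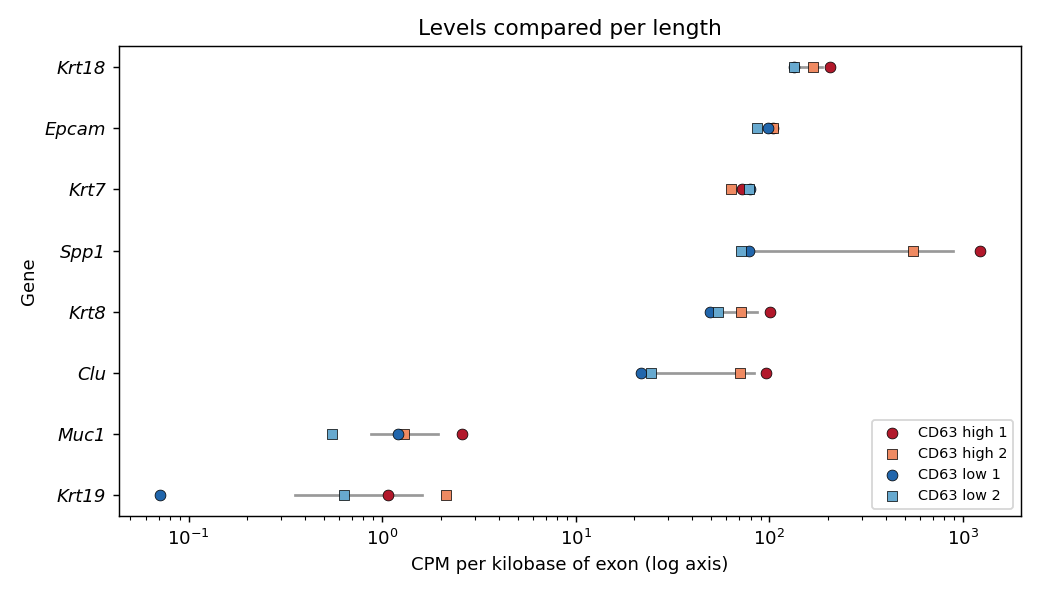
CPM per kilobase of exon (log axis) for 8 of the 9 genes in each library, ordered by their mean in CD63 low cells, with a grey line joining the group means; Sox9, with no count in CD63 low libraries, is left out. Spp1 moves from among the keratins in CD63 low cells to 554 and 1218 CPM per kilobase in CD63 high cells, and Muc1 and Krt19 stay at or below 2.57.

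Other genes of these families and pathways changed in small numbers. Of 185 such genes in the tables, 113 were tested, 10 rose and none fell by edgeR's test, a share of 8.85% against 2.50% of all tested genes. Of the 113, 4 (Itga5, Jag1, Krt20 and Mmp9) passed the filter on low counts through the CD63 high libraries alone, and 2 of these are among the 10; none of the 9 genes studied did. At an unadjusted p under 0.05, 25 were higher and 9 lower, DESeq2 called 14 higher and 0 lower, and limma-voom 6 and 0. The median log2 fold change was 0.09, against -0.01 over all tested genes. With library size as the only scaling 2 of them, Anxa2 and Cd24a, were called.

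Among 14 tested further duct genes 1 rose, with a median log2 fold change of 0.29. This was Anxa2, annexin A2, a calcium-dependent membrane-binding protein of epithelial and many other cells, at 6.67 and 15.8 CPM in the CD63 high samples and at 0.824 and 0.359 CPM in the CD63 low samples (log2 fold change 4.26, SE 0.56, edgeR adjusted p 0.00362). Without CD63 high replicate 2 it was 3.51, and without CD63 low replicate 1 it was 4.94. The claudin genes Cldn3 and Cldn7, whose products seal tight junctions, were at log2 fold changes of 0.65 and 0.76 with edgeR adjusted p of 0.141 and 0.0896 (Cldn7 0.00925 with DESeq2, and 0.0428 without CD63 low replicate 1), both being chosen for mention once their values were known.

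Of 33 tested genes of epithelial adhesion and junctions 1 rose and 32 did not pass (median -0.02). The gene that rose was Cd24a, a small anchored surface glycoprotein also used as a marker of immature epithelial cells. It was at 8.87 and 10.7 CPM in the CD63 high samples and at 1.29 and 1.13 CPM in the CD63 low samples (log2 fold change 3.02, SE 0.37, edgeR adjusted p 0.00306). All 4 libraries lay close to their group mean. Cdh1, the gene of E-cadherin, was at -0.57 and did not pass (edgeR adjusted p 0.335). Its size hung on single libraries. Dropping CD63 low replicate 1 gave -0.86, the largest fall. The smallest, -0.19, came from dropping CD63 low replicate 2. Cdh1 is named after its value was seen. None of 13 tested other keratins and keratin-linking genes passed in edgeR's test, with 3 higher and 0 lower at an unadjusted p under 0.05. Among 9 other intermediate filament genes, Vim, the filament gene of mesenchymal and myeloid cells, rose (log2 fold change 2.79, SE 0.64, edgeR adjusted p 0.0478). Its CPM values were 3.35 and 16.9 against 1.22 and 1.69, and without CD63 high replicate 2 the log2 fold change was 1.2 and the call ended (adjusted p 0.530). The call of Vim also ended with limma-voom (0.174) and in the robust fit (0.0775).

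Of 11 tested genes of osteopontin receptors, related phosphoproteins and processing enzymes 2 rose, both without counts in the CD63 low libraries. These 2 genes passed the filter on low counts through the CD63 high libraries alone, so a difference was built into their entry and their calls are given as a description. Itga5, the alpha 5 chain of an integrin that binds osteopontin and fibronectin, had 40 and 45 counts in CD63 high libraries and was at least 33.3-fold higher (edgeR adjusted p 0.0155). Mmp9, a matrix metalloproteinase that cleaves osteopontin, had 15 and 37 counts and was at least 20.3-fold higher (edgeR adjusted p 0.0472). Its call ended without CD63 high replicate 2 (0.276), CD63 low replicate 1 (0.0702) or CD63 low replicate 2 (0.120) and in the robust fit (0.0553). The more abundant receptor genes did not pass. Cd44 was at a log2 fold change of 0.04, Itgav, the alpha V chain, at 0.27, and Itgb1, the beta 1 chain, at -0.15, values that are given although the rule for named genes did not choose them. The list's median was 0.20, and it is the same with the bounds of Itga5 and Mmp9 in place of their fitted values.

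Of 8 tested clusterin receptors and extracellular chaperones 4 rose, with a median log2 fold change of 1.55. Apoe, apolipoprotein E, was at 103 and 493 CPM in the CD63 high samples and at 14.1 and 26.9 CPM in the CD63 low samples (log2 fold change 3.86, SE 0.61, edgeR adjusted p 0.00815). Trem2, a myeloid lipid receptor that also binds clusterin, was at 3.67 and 14.3 against 0.0330 and 0.462 CPM. Lrp1 and Stab1, scavenger and endocytic receptors, had log2 fold changes of 3.0 (SE 0.65) and 2.89 (SE 0.61). Each of the 4 was highest in the library richest in macrophage markers, CD63 high replicate 2, whereas Clu itself was highest in CD63 high replicate 1. Without CD63 high replicate 2 the log2 fold changes of Apoe and Trem2 were 2.32 and 3.81, and Lrp1 and Stab1 lost the call (edgeR adjusted p 0.116 and 0.210). The values of Trem2 were 4.26 without CD63 low replicate 1, 5.74 without CD63 high replicate 1 and 7.93 without CD63 low replicate 2. The last was fitted against a library at 0.0330 CPM and so is no measure of size. That of Lrp1 was 3.94 without CD63 low replicate 1 and 2.41 without CD63 low replicate 2. Apoe was 4.58 without CD63 high replicate 1 and lost the call in the robust fit (0.349), and limma-voom did not call Lrp1, Stab1 and Trem2 (adjusted p 0.0546, 0.0673 and 0.0928). The part of macrophage transcripts in these rises was not tested.

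Of 5 tested mucin and mucin-related genes, Lgals3 rose, the gene of galectin 3, a lectin of epithelial cells and macrophages (40.2 and 154 CPM against 3.20 and 9.06 CPM; log2 fold change 3.97, SE 0.61, edgeR adjusted p 0.00711). Leaving out CD63 high replicate 2 gave 2.71, leaving out CD63 high replicate 1 gave 4.64, and leaving out CD63 low replicate 2 gave 4.94. The robust fit did not call it (0.324). Muc4, the only other mucin tested, was at a log2 fold change of -0.04 and is named after its value was seen. Of 20 tested duct and progenitor transcription factor, Notch and YAP genes none passed in edgeR's test (median -0.13), with 1 higher and 6 lower at an unadjusted p under 0.05. DESeq2 and limma-voom called none of them either.

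**Figure D4:**
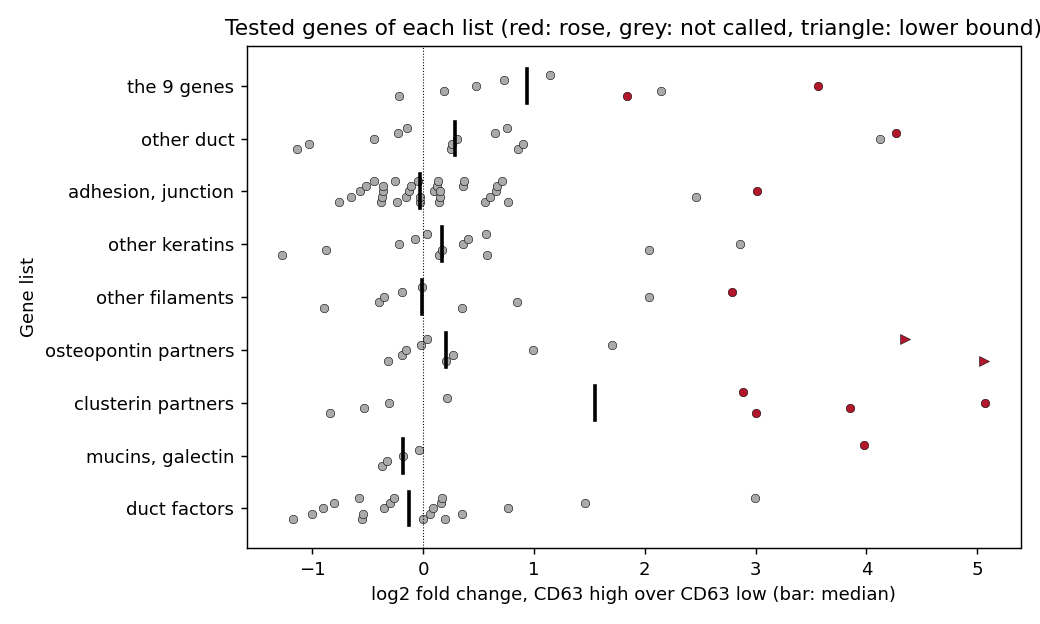
The log2 fold change of CD63 high over CD63 low for each tested gene of the 9 studied and of the 8 related lists, with red for genes that rose, grey for those not called, a black bar for the median, and triangles for Itga5 and Mmp9 at their lower bounds. Medians lie between -0.18 and 0.29 in 7 of the related lists and at 1.55 for the clusterin partners, where 4 of 8 genes rose.

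Spp1 is also a known product of activated macrophages, so its values were set beside marker sums of other cell types. Of the 17 macrophage markers 14 rose, and their sum was higher in both CD63 high libraries, as was that of Spp1. Within CD63 high the order differed. Spp1 was 2.20-fold, Clu 1.35-fold and Krt8 1.41-fold higher in replicate 1 than in replicate 2, whereas replicate 1 held 0.279 times the macrophage, 0.656 times the acinar, 0.509 times the delta, 0.569 times the gamma and 0.873 times the alpha cell marker sum of replicate 2 on the same TMM scale. The sums that were higher in replicate 1, as Spp1 was, were those of endothelial (1.45-fold) and Schwann cell markers (1.40-fold). Mesenchymal markers stood at 0.0884 times, the 6 duct markers outside the 9 genes at 0.708 times and beta cell markers at 0.863 times. Of the scarce duct genes among the 9, Muc1 (1.99-fold) and Sox9 (18 and 1 counts) were higher in replicate 1, and Krt19 was lower (0.498 times). Of the 331 genes that rose, 39% had the higher value in CD63 high replicate 1, Spp1 and Clu among them. CD63 high replicate 2, the library richest in macrophage, acinar, alpha, delta and gamma cell markers, held less Spp1 and Clu than replicate 1. Leaving it out thus had to raise their log2 fold changes, to 4.02 and 2.05, and tells nothing of their source. How much of the Spp1 and Clu transcripts came from cells other than beta cells was not tested.

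**Figure D5:**
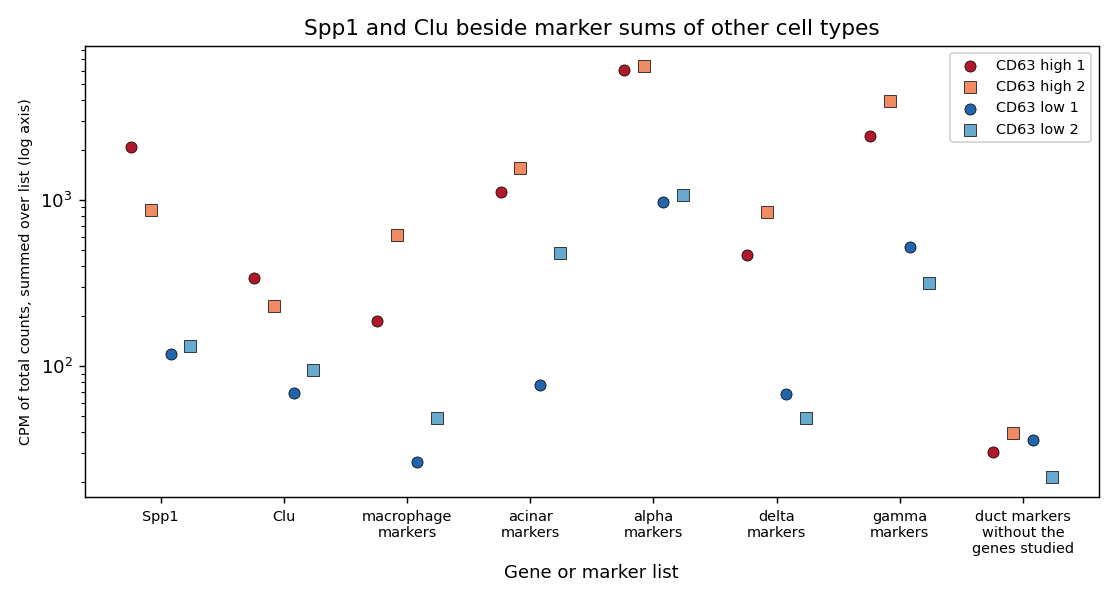
CPM of total counts in each library for Spp1, Clu and the summed markers of macrophages, acinar, alpha, delta, gamma and duct cells (the last without the genes studied), on a log axis. Spp1 and Clu are highest in CD63 high replicate 1, the macrophage, acinar, alpha, delta and gamma sums in CD63 high replicate 2, and the 6 duct markers lie between 21.5 and 39.7 in all libraries.

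The genes whose profile over the 4 libraries was most like that of Spp1 were sought among the 7663 genes whose average log2 CPM reached 3, by the distance between centred log2 CPM values. The 5 nearest were Fgg and Fga, the fibrinogen gamma and alpha chain genes, Pdyn, the prodynorphin gene, Stom, the gene of the membrane protein stomatin, and Steap4, a metalloreductase gene. Their distances were 0.339 to 0.543. Fgg was at 149 and 58.8 CPM in the CD63 high samples and at 9.79 and 10.6 CPM in the CD63 low samples, with a log2 fold change of 3.35 against 3.57 for Spp1 (2.53 and 2.89 without CD63 high replicate 1). Pdyn was at 429 and 147 against 28.3 and 22.7 CPM. Like Spp1, all 5 were highest in CD63 high replicate 1. The 5 genes nearest to Krt18 (Zcchc7, Ppa1, Spin1, Tlcd1 and Snapc1) had distances of 0.0476 to 0.0689 and log2 fold changes of 0.43 to 0.51, and none of them passed the test (edgeR adjusted p 0.243 to 0.549). With 4 libraries many genes share such a profile, and likeness is a description. Both sets of 5 were chosen by these same values, so their like order and fold changes come from the choice.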

How the data were processed

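Sorted cells of 4 libraries were sequenced after SMARTer v4 low-input amplification of polyA RNA and Nextera XT library preparation, per the labels' protocols. The authors deposited raw counts per gene name, made with featureCounts 1.6.2 from paired-end fragments with the Cell Ranger mm10 3.0.0 annotation and no strand or multi-mapping option, per the file headers. STAR 2.6.0c is named per the submitters' processing notes. Reads that match several places or genes are left out, which lowers genes with near copies.

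Groups came from the sample titles. Counts were filtered with filterByExpr (minimum count 10, total 15), which kept 13241 genes, TMM-scaled, and tested in edgeR 4.0.16 (R 4.3.3; glmQLFit, glmQLFTest) with the group as the only term. Benjamini-Hochberg adjustment ran over all tested genes, with calls under 0.05. Standard errors were derived from the F statistic (size of the log2 fold change divided by its root), and intervals use the fit's degrees of freedom. DESeq2 1.42.0, limma-voom (limma 3.58.1), RLE and library size scaling, no filter, a robust fit, a replicate block and leaving out each library were alternatives. The test was tested on simulated data. Within groups a chi-square of counts gave 37.3 and 73.7 per degree of freedom, so no 2 libraries were alike within sampling noise. Fold bounds set the CD63 low group at 3 counts in all. Near copies were sought with BLAST 2.17.0 in GENCODE transcripts (at least 95% identity over 100 bases).

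The members and lists were chosen with earlier results of these data known. Named genes are the 9 genes and Cd63, up to 4 called genes per related list by smallest p, every duct marker but 1 that is not reported here and was left out of all lists, and the 5 nearest profiles of Spp1 and Krt18. Marker lists give sums and counts: 5 of 16 tested acinar, 2 of 9 alpha, 3 of 3 delta and 4 of 4 gamma markers rose, 4 of 12 beta cell markers fell, and none of 3 mesenchymal, 4 endothelial and 3 Schwann cell markers passed.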

Additional observations from a re-analysis of the deposited data

How the results depend on the processing

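Spp1 and Clu rose in all 11 alternatives, and of 61 genes run under them the 5 that changed direction all lay near 0, and of these 1, Tspan8, passed in any (without CD63 low replicate 1). Leaving out 1 library moved the log2 fold change between -0.28 and 1.13 for Tspan8, -0.57 and 0.20 for Bicc1, -0.12 and 0.23 for Cd44, -0.45 and 0.23 for Itgb1 and -0.30 and 0.18 for Muc4. The number of the 9 genes that rose was 2 or 3 in 10 alternatives (2 to 3 when 1 library was left out) and 4 without a filter on low counts, where Krt8 and Krt19 joined; none fell in any. Over all genes, 331 rose and 38 fell; the counts were 66 and 1 with library size scaling, 690 and 250 without a filter and 534 and 152 with DESeq2. When 1 library was left out 378 to 512 rose and 56 to 257 fell. Of the genes of related lists, 10 rose and none fell, against 2 rises with library size scaling, 17 rises and 3 falls without a filter, 6 rises with limma-voom and 6 in the robust fit, and 10 to 15 rises and 0 to 4 falls when 1 library was left out. The cause of these shifts was not tested, except that fewer samples or other genes entered some fits. Replicate numbers, taken from the titles, do not pair the libraries by any label. The deposited files number the CD63 low libraries 2 and 3, which leaves 1 shared number and no block to fit. By the titles, deviations of same-numbered libraries correlated at -0.0801. With the replicate number of the titles as a block 535 genes rose and 81 fell, 3 of the 9 genes rose, and Krt19 passed (edgeR adjusted p 0.0169). As no label pairs the libraries, the calls of this fit are a description only. Counts are lowest for Sox9, Krt19 and Muc1, where single libraries hold 0 to 189.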
